A study of Mus musculus with 6 samples.

Results

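Fatty acid oxidation was followed at the chromatin level through 8 genes of mouse kidney, Cpt1a, Cpt2, Acadm, Acadl, Acadvl, Hadha, Hadhb and Ehhadh. An accessible interval was assigned to a gene when it overlapped the stretch from 3 kb upstream of the annotated gene start to the gene end. By this rule 107 of the 279569 distinct intervals in the peak list belonged to the 8 genes. The counts per gene added up to 112, because 5 intervals were shared by Hadha and Hadhb, which start side by side.

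The measurements were bulk ATAC-seq of nuclei from kidney tissue, which was cortex per the study's methods. In this assay the Tn5 transposase cuts DNA that is not covered by nucleosomes. The labels give 6 libraries, 3 WT and 3 Acly cKO, all carrying the treatment label Control. Acly encodes ATP citrate lyase, which makes cytosolic acetyl-CoA from citrate, and per the study the cKO mice carried Acly fl/fl with Ksp-Cre, a Cre driven by the Cdh16 promoter in tubular epithelium, while Cre-negative Acly fl/fl littermates served as controls. The WT libraries are labelled with batches 1 and 2 and the Acly cKO libraries with batches 4 and 5, which means that genotype cannot be told apart from batch. An age is stated in the methods for the mice of the injury models, but none is tied to these libraries. The study's WT set also included libraries deposited earlier, and whether the pooled call holds them is not given. The peak list is a single call over pooled libraries with no column for a library or a genotype, so no value below is a comparison of WT with Acly cKO, and no test across replicates could be made. The list holds 1 level of accessibility per summit, given as fold enrichment over a constant genome background.

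Mitochondria shorten fatty acids by repeated oxidation, and the proximal tubule of the kidney draws much of its energy from this pathway. Carnitine palmitoyltransferases carry long-chain acyl groups inward, with CPT1A working at the outer membrane and CPT2 at the inner membrane. Acyl-CoA dehydrogenases then open each cycle, ACADVL on very long, ACADL on long and ACADM on medium chains. HADHA and HADHB are the subunits of the mitochondrial trifunctional protein, which carries out the remaining steps on long chains. EHHADH is a bifunctional enzyme of peroxisomes, where very long and dicarboxylic chains are shortened. Several of these genes are textbook targets of PPARA, which binds with RXR to DR1 elements, direct repeats of a half-site spaced by a single base.

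The promoters are shown because the strongest summit of each of the 8 genes lay at or near them. Each run starts 150 bases before the start of the canonical transcript of GENCODE and ends at most 30 bases into annotated exon sequence. All sequences are from GRCm39 and are written 5′ to 3′ on the strand of the gene. Capitals mark GC boxes (GGGCGG or its complement CCGCCC) and CCAAT boxes (CCAAT or ATTGG).
Cpt1a (chr19:3373121-3373300, plus strand): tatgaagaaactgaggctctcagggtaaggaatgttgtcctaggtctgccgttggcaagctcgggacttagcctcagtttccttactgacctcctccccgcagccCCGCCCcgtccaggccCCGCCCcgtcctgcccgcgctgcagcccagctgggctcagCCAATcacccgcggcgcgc
Cpt2 (chr4:107780783-107780962, minus strand): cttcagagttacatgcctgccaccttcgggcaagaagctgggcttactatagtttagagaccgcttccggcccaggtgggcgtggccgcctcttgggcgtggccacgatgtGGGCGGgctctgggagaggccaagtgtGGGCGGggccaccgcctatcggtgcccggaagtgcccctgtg
Acadm (chr3:153650288-153650425, minus strand): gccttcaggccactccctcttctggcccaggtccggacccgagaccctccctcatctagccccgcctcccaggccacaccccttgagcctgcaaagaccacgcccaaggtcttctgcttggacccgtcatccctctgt
Acadl (chr1:66902604-66902782, minus strand): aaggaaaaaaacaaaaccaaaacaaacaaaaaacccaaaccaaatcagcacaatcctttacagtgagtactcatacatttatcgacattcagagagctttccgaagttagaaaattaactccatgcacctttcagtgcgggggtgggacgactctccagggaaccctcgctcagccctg
Acadvl (chr11:69906241-69906419, minus strand): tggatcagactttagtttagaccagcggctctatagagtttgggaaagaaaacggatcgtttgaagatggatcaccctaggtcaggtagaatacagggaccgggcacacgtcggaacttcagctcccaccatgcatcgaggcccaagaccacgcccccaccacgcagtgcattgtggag
Ehhadh (chr16:21606534-21606713, minus strand): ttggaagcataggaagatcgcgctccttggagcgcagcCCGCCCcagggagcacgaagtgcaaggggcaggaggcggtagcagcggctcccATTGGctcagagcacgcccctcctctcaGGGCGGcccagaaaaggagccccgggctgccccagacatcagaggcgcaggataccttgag
Hadha and Hadhb are transcribed away from each other from starts that lie 65 bp apart. The stretch from start to start is therefore given once, on the plus strand, the strand of Hadhb.
Hadha to Hadhb (chr5:30360181-30360246, plus strand): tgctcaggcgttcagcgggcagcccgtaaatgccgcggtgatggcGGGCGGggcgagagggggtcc
The printed promoters of Cpt1a, Cpt2 and Ehhadh and the stretch between Hadha and Hadhb held a GC box, and those of Cpt1a and Ehhadh also held a CCAAT box. The printed promoters of Acadm, Acadl and Acadvl held neither. The summits of Cpt1a and Acadl lay past the ends of the printed runs, in exon 1, and the 200 bp around the Acadl summit did hold GC boxes.

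All 8 genes had their highest summit within 150 bp of the canonical start. By the outermost annotated gene start, the measure of the gene rule, the highest summit lay within 1 kb at 6 of 8 genes, where 49.2% of all 21757 protein-coding genes have theirs. Measured from the canonical start the count was 8 of 8 against 52.5% of coding genes. The difference came from Cpt1a and Hadhb, whose outermost starts lie 1418 bp and 1042 bp upstream of the canonical start. Each of the 8 genes reached 5-fold within 1 kb of the gene start, a level reached by 61.5% of coding genes there and by 64.3% at the canonical start. At least 1 interval was present at 83.2% of coding genes and at all 8. The shares above are of all coding genes and so include those without an interval, which have no highest summit to place.

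Acadm, the medium-chain dehydrogenase, had the highest summit of the group. It stood at 91.3-fold (95% counting interval 86.6 to 96.3, 1394 reads), exactly at the annotated gene start on chromosome 3 (153627989 to 153650317, minus strand) and 42 bp upstream of the canonical start. Within 1 kb of the canonical start, 98.9% of coding genes were lower. The next highest summit of the same 7190-bp interval reached 11.5-fold at 1188 bp downstream, so a single summit stood far above the others of that interval.

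Acadl, the long-chain dehydrogenase, followed at 65.2-fold (61.2 to 69.4, 995 reads). Its gene lies on chromosome 1 (66868267 to 66902633, minus strand), and the summit fell 133 bp downstream of the canonical start, in exon 1. A further summit of 51.1-fold stood 602 bp downstream in the same interval. Acadl was above 92.8% of coding genes at the canonical start.

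Cpt1a, which controls the entry of long-chain acyl groups, reached 45.8-fold (42.5 to 49.4, 699 reads) 38 bp downstream of its canonical start on chromosome 19 (3371853 to 3437996, plus strand). The interval was 8040 bp wide and held 23 summits, with a further summit of 29.1-fold at 2258 bp. It also held the start of the antisense long non-coding RNA Gm58963, 477 bp from the canonical start, and ATAC-seq does not tell the strands apart. Around the outermost gene start of Cpt1a the highest value within 1 kb was 21.4-fold (19.2 to 23.9), so the choice of start moved Cpt1a from above 57.4% to above 80.3% of coding genes.

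Ehhadh, the peroxisomal member, reached 41.0-fold (37.8 to 44.3, 625 reads) 52 bp upstream of its start on chromosome 16 (21580036 to 21606563, minus strand). Cpt2 reached 37.6-fold (34.6 to 40.8, 573 reads) 29 bp downstream of its start on chromosome 4 (107751473 to 107780812, minus strand). Both lay in the upper part of the coding genes, with 75.8% and 72.4% of coding genes lower.

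Acadvl, the very-long-chain dehydrogenase, reached 33.3-fold (30.4 to 36.3, 507 reads) 21 bp downstream of its canonical start on chromosome 11 (69900853 to 69906270, minus strand). Hadha (chromosome 5, 30323302 to 30360187, minus strand) and Hadhb (chromosome 5, 30359204 to 30389997, plus strand) share a single summit of 31.5-fold (28.7 to 34.4, 480 reads). It lay between the canonical starts of the pair, 57 bp upstream of the Hadha start and 8 bp upstream of the Hadhb start, inside the stretch printed above. A neighbouring summit of 30.9-fold stood 62 bp downstream of the Hadha start, so the bidirectional promoter carried a pair of summits of nearly the same height. Acadvl was above 67.8% of coding genes, and Hadha and Hadhb were above 65.8%.

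**Figure D1:**
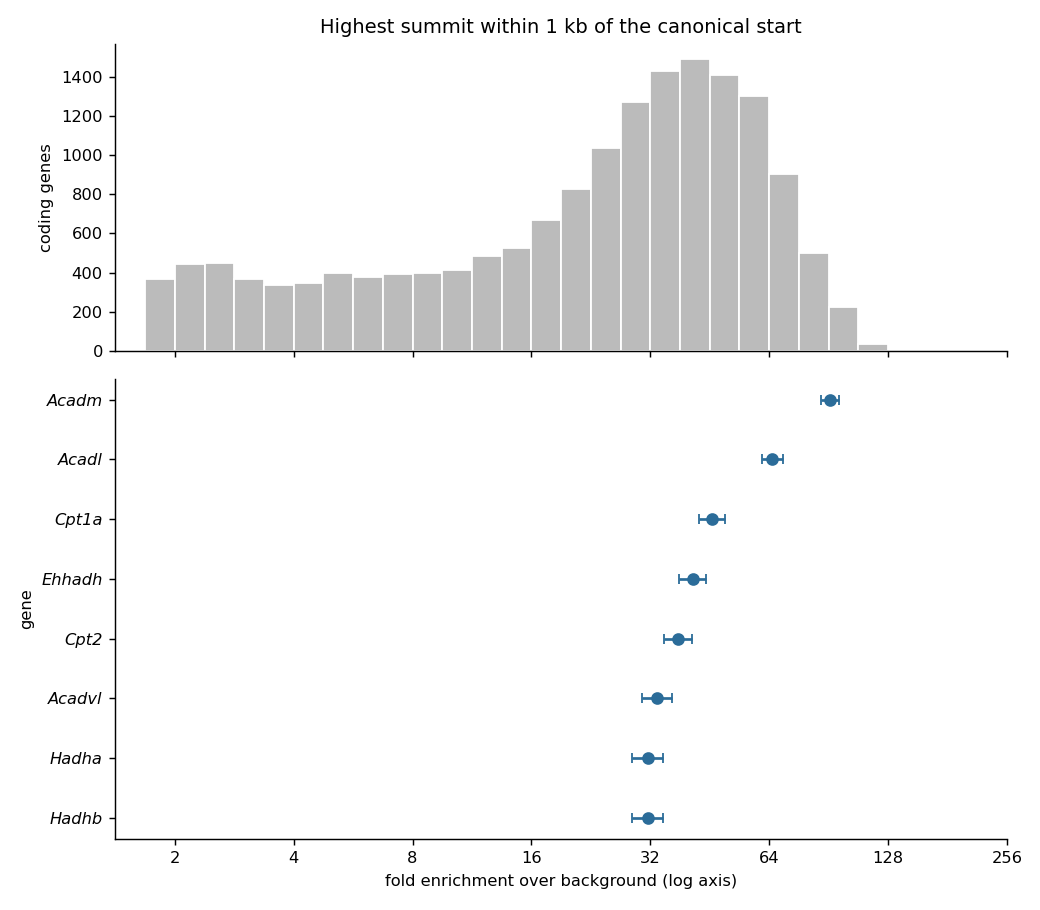
The lower panel plots the fold enrichment of the highest summit within 1 kb of the canonical start for the 8 genes on a log axis, with bars for the 95% Poisson counting interval, and the upper panel shows the same quantity for the 16410 coding genes with a summit there, out of 21757. Acadm (91.3) and Acadl (65.2) stand to the right of the other 6 genes, which lie between 31.5 and 45.8.

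In order, the summits ran Acadm, Acadl, Cpt1a, Ehhadh, Cpt2, Acadvl and the shared summit of Hadha and Hadhb. The counting intervals did not overlap between Acadm and Acadl, whose ratio was 1.40, or between Acadl and Cpt1a, whose ratio was 1.42. For every other pair of neighbours in the order they overlapped, so the order from Cpt1a to Hadhb is not resolved between neighbours. These intervals cover the counting error of the pooled reads alone and not the variation between mice. The median of the 8 genes at the canonical start was 39.3-fold against 17.0-fold over all coding genes. Among the 13985 coding genes that reached 5-fold at that start the median was 33.3-fold (quartiles 18.9 and 50.2), and in that set Acadm was above 98.3% and Acadl above 88.9% of genes, while Cpt2 was above 57.1%, Acadvl above 49.9% and Hadha and Hadhb above 46.8%. In bulk tissue a lower value may reflect fewer cells with an open site or a less open site per cell, and the files cannot tell these apart.

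The strongest windows were also rich in G and C. Over 200 bp around the 7 highest summits the GC content had a median of 65.5% (60.5% at Acadvl to 82.0% at Acadl), against 50.5% over all intervals. The ratio of observed to expected CpG dinucleotides had a median of 0.710 against 0.191. It ran from 0.402 at Acadm to 1.02 at Cpt1a, so Acadm combined the highest summit with the lowest CpG ratio of the group. All 7 windows lie at gene starts, while the intervals of the comparison lie anywhere. The strongest intervals of the 8 genes away from the start had medians of 51.5% and 0.245. Values for the starts of other genes were not computed, so these figures may be those of promoters in general.

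Accessible chromatin extended well beyond the starts. The 8 genes had between 3 intervals (Acadvl) and 32 intervals (Cpt1a), with a median of 13.5 against 4 for coding genes. Per 10 kb of region the median was 3.66 against 1.86, from 2.78 at Cpt2 to 6.71 at Acadm, which was denser than 98.3% of coding genes. Intervals covered a median of 54.1% of the region against 16.7%. These medians of coding genes include genes without any interval, as 83.2% of coding genes had at least 1. The counts and the coverage also include the intervals at the starts. A comparison with accessible genes alone was not made. Coverage separated the genes more than density did, with 94.3% at Acadvl, 70.0% at Cpt1a, 65.0% at Acadl, 64.3% at Acadm, 43.8% at Ehhadh, 33.1% at Hadha, 25.2% at Hadhb and 23.2% at Cpt2.

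**Figure D2:**
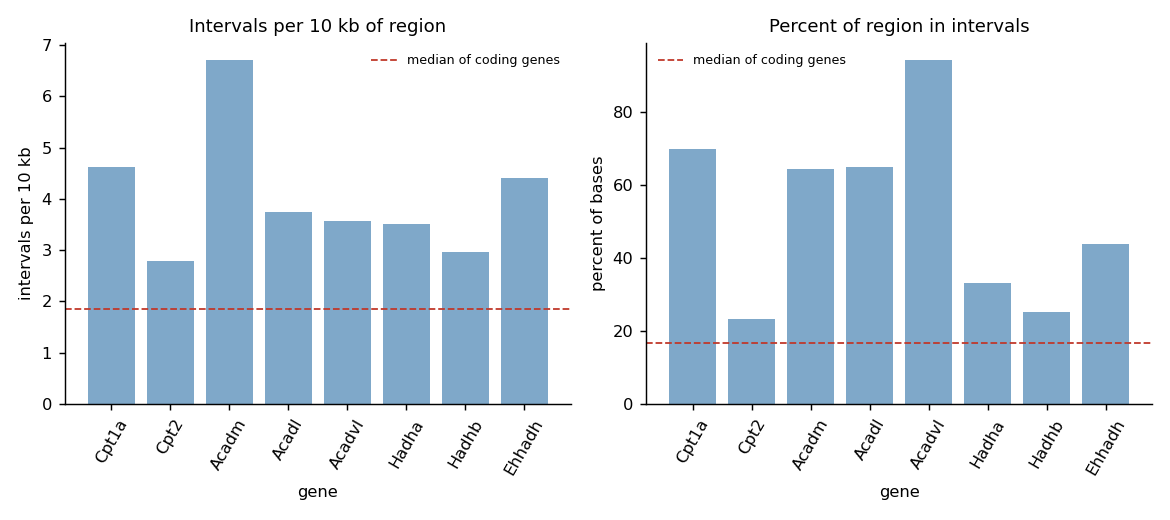
Bars give, for each of the 8 genes, the number of intervals per 10 kb of region (left) and the percent of bases of the region that lie in intervals (right), and the dashed line is the median of coding genes. All 8 bars lie above the line in both panels, from 2.78 to 6.71 intervals per 10 kb and from 23.2% to 94.3% of bases.

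The single intervals were ordinary in height. Their median was 2.49-fold against 2.55-fold over all intervals, and 27 of 107, or 25.2%, reached 5-fold, where 24.5% of all intervals did. They were wider, with a median of 590 bp against 434 bp, and 43 of 107 (40.2%) had a single summit against 53.4% of all. Leaving out the 7 intervals with a canonical start, 100 intervals remained, of which 75 had their highest summit in an intron (17 in the first and 58 in a later one), 9 in an exon, 8 upstream and 8 beyond the end of the canonical transcript. Of those 100 intervals, 20 reached 5-fold.

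**Figure D3:**
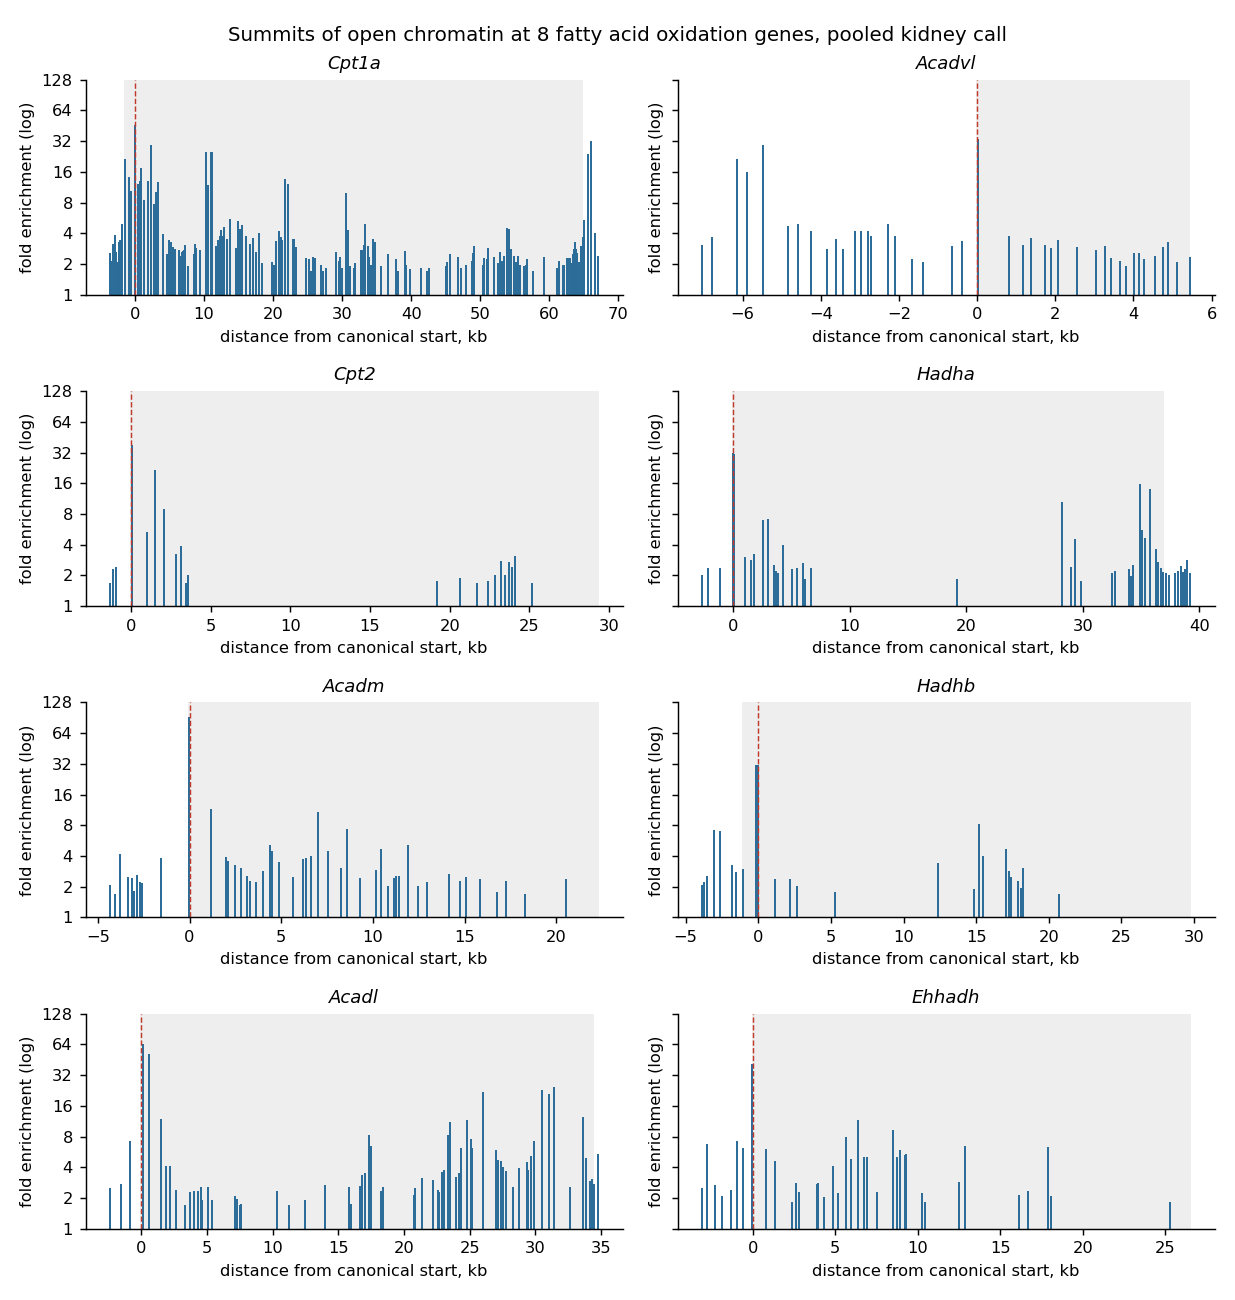
Each panel plots every summit of the assigned intervals of 1 gene by its distance from the canonical start in kb (downstream to the right) and its fold enrichment on a log axis, with the annotated gene in grey and the canonical start as a dashed line. The tallest line stands at the start in all 8 panels, and further tall lines stand 66066 bp downstream at Cpt1a (31.9-fold), 31438 bp downstream at Acadl (24.6-fold) and 5471 bp upstream at Acadvl (29.2-fold).

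The members differed widely in their strongest interval away from the start. At Cpt1a it reached 31.9-fold (29.1 to 34.8), or 69.6% of the level at the start, but its summit lay past the gene end, 66066 bp from the Cpt1a start and 42 bp from a transcript start of the neighbouring coding gene Tesmin. Inside Cpt1a, and chosen here after its values were seen, the first intron held intervals of 25.3-fold at 10988 bp and 13.6-fold at 21779 bp. The nearest start of another coding gene was 51242 bp away for the first (Ighmbp2) and 43807 bp away for the second (Tesmin).

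Acadl had 24.6-fold (22.2 to 27.2) in intron 10, 31438 bp downstream, which was 37.8% of its start. That interval was the widest of the group at 10308 bp with 28 summits, and the nearest start of another coding gene, Kansl1l, lay 14430 bp from the summit. The 100 bases around it are shown as the strongest intronic site of the dehydrogenases.
Acadl intron 10 (chr1:66871144-66871243, minus strand): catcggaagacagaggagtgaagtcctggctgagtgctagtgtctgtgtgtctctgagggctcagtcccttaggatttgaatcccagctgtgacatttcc
This window held no match to the motifs searched, although a GC box lay 81 bp from the summit, outside the bases printed.

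Acadvl is the most compact gene of the group, and 1 interval of 6519 bp with 23 summits covered the whole gene of 5418 bp. Apart from the summit at the start the interval was low throughout, and its next highest summit reached 3.73-fold at 816 bp downstream. Its strongest interval elsewhere reached 29.2-fold (26.6 to 32.04), 87.8% of the start, with the summit 5471 bp upstream within the gene Dlg4 and 2035 bp from the nearest Dlg4 transcript start.

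Hadha had 15.8-fold (13.9 to 17.97) in intron 18, 34879 bp downstream, and 10.5-fold in intron 12. Acadm had 10.8-fold (9.22 to 12.6) in intron 6, which was 11.8% of its start. Cpt2 had the lowest such value, as its strongest interval away from the start reached only 3.08-fold (2.27 to 4.08), or 8.19% of the start. That summit lay 24079 bp downstream, beyond the end of the canonical transcript, and the region of Cpt2 overlaps the coding gene Czib. The start interval of Cpt2 was 4148 bp wide, however, and held a further summit of 21.8-fold 1528 bp downstream of the start.

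Hadhb had 8.25-fold (6.88 to 9.82) in intron 6, 15172 bp downstream of the canonical start. This summit also lay 319 bp from the start of the microRNA gene Mir1960. Ehhadh had 11.7-fold (10.1 to 13.6) in intron 1, 6355 bp downstream, and 5 of its intervals away from the start reached 5-fold, including 6.74-fold at 2779 bp upstream and 6.55-fold in intron 3. These sites are shown because they held matches to the motifs of nuclear receptors or of HNF1, a factor of the renal tubule. Capitals mark the matches, which are DR1 with up to 2 mismatches, HNF1 with up to 2 mismatches, and exact TATA and CCAAT boxes.
Hadhb intron 6 (chr5:30375368-30375467, plus strand): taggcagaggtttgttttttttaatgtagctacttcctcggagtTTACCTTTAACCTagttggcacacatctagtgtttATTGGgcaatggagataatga
Ehhadh intron 1 (chr16:21600158-21600257, minus strand): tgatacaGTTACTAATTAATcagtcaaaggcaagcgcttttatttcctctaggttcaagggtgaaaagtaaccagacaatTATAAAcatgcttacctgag
Ehhadh intron 3 (chr16:21593635-21593734, minus strand): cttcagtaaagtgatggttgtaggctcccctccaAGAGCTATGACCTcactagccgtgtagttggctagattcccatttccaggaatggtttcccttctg
Ehhadh upstream (chr16:21609292-21609391, minus strand): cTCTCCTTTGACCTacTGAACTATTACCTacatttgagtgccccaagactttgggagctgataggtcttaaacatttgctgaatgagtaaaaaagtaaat
In Hadhb intron 6 a DR1 match lay on the summit itself, and at Ehhadh the upstream window held a pair of adjoining DR1 matches.

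The search covered 8 motifs on both strands in windows of 200 bp, each centred on the strongest summit of an interval. DR1 was taken as AGGTCANAGGTCA with up to 2 mismatches over its 12 fixed bases. It was found in 7 of the 107 windows (6.54%, 95% Wilson interval 3.20 to 12.9) and in 4.78% of all windows, a background that lies inside the interval. The comparison depended on the mismatches allowed and on the windows taken, as with up to 3 mismatches the share was 37.4% (28.8 to 46.8) against 25.1% of all, a background outside the interval. The 7 windows were at Acadvl (the start), Ehhadh (2), Hadhb (2) and Cpt1a (2). Among the 27 windows of at least 5-fold, 4 held a match (14.8%, 5.92 to 32.5) against 5.13% of all such windows, again a background outside the interval. The background lay inside the interval at the other settings tried. With up to 1 mismatch the share was 0.935% (0.165 to 5.10) against 0.756%. In windows narrower than 200 bp it was 5.61% (2.60 to 11.7) against 2.73%. In windows wider than 200 bp it was 9.35% (5.16 to 16.4) against 8.02%. These intervals treat windows as independent, which windows of 1 gene need not be, and they rest on few windows. No excess of DR1 is therefore read from them.

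The only DR1 match in a start window, and the only one in any of the 107 windows with a single mismatch, was at Acadvl. It lay in exon 1 at chr11:69906174-69906186, 68 bp from the summit, and is printed with 3 flanking bases on either side.
Acadvl exon 1 (chr11:69906171-69906189, minus strand): aagAGGTCAGTGGTCAaga
When the whole intervals were searched with at most 1 mismatch, 7 matches were found in 145347 bp, or 0.482 per 10 kb, against 0.310 per 10 kb over all intervals. Of these 7, 3 lay in the first intron of Cpt1a, 2 in Hadha introns, 1 beyond the canonical transcript of Cpt2 and 1 was that of Acadvl. Apart from the Acadvl match, the summits nearest to them stood at only 1.83-fold to 3.08-fold. No interval was computed for the density, which rests on few matches, so no excess is read from it. A match is a description of the letters and says nothing of binding.

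The GC box GGGCGG was in 8 windows (7.48%) against 8.15% of all, but 5 of these 8 were start windows, those of Cpt1a, Cpt2, Acadl, Ehhadh and the Hadha and Hadhb pair. The start windows of Acadm and Acadvl held none. The CCAAT box was in 18 windows (16.8%) against 22.8% and the TATA box TATAAA in 10 (9.35%) against 6.81%. None of the 7 start windows held a TATA box. Shares among the start windows of other coding genes were not computed, so these counts do not set the 8 genes apart from other promoters.

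The ERR site TCAAGGTCA, bound by estrogen-related receptors, was in 2 windows, both in Cpt1a at under 2-fold, against 0.68% of all. The cAMP response element TGACGTCA was in 0 windows against 0.405% and the NRF1 site (GCGC and TGCGC around any base) in 0 against 0.484%. The HNF1 site GTTAATNATTAAC with up to 2 mismatches was in 3 (2.80%) against 2.7%. Matches of the ERR site and of DR1 can overlap, as they did in 1 Cpt1a window.

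Most starts of the wider pathway were accessible too. Of 43 other genes of fatty acid oxidation, 40 reached 5-fold within 1 kb of the gene start, and 41 did so at the canonical start, where 61.5% and 64.3% of coding genes did. The mitochondrial list had 17 of 17 (median 43.7-fold), the peroxisomal list 14 of 14 (36.4-fold), and the list of uptake and activation 9 of 12 (34.0-fold).

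Among the other mitochondrial genes Etfdh, which passes electrons from the dehydrogenases to ubiquinone, was highest at 111-fold, above all 8 members. Etfb, a subunit of the electron transfer flavoprotein, reached 68.4-fold, and the isomerase Eci1 63.0-fold. The lowest were Eci2 with 6.35-fold at the gene start but 51.5-fold at the canonical start, and the CPT1 isoforms of other tissues. Cpt1b, the muscle isoform, reached 8.84-fold (7.42 to 10.5) and Cpt1c, the brain isoform, 7.66-fold (6.34 to 9.17), and neither counting interval overlapped that of Cpt1a. The region of Cpt1b held a summit of 47.1-fold, but this lay 47 bp from a start of Chkb. That of Cpt1c held a summit of 29.8-fold, 4525 bp downstream of its canonical start. The nearest start of another coding gene, Prmt1, lay 9183 bp from that summit.

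On the peroxisomal list Crot, which transfers medium chains to carnitine, reached 76.5-fold and the thioesterase Acot8 46.9-fold. The lowest values were 11.9-fold at Abcd2, a transporter of very-long-chain acyl-CoA, 13.0-fold at Scp2 and 15.9-fold at Acaa1a, which reached 60.5-fold at its canonical start. Acsl3 (76.5-fold), Acsl1 (67.9-fold) and the carnitine transporter gene Slc22a5 (55.6-fold) led the list of uptake and activation. Acsl6 (1.70-fold), Fabp1 (2.55-fold), which encodes the liver fatty acid binding protein, and Acsl5 (3.93-fold, 15.1-fold at the canonical start) were lowest.

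**Figure D4:**
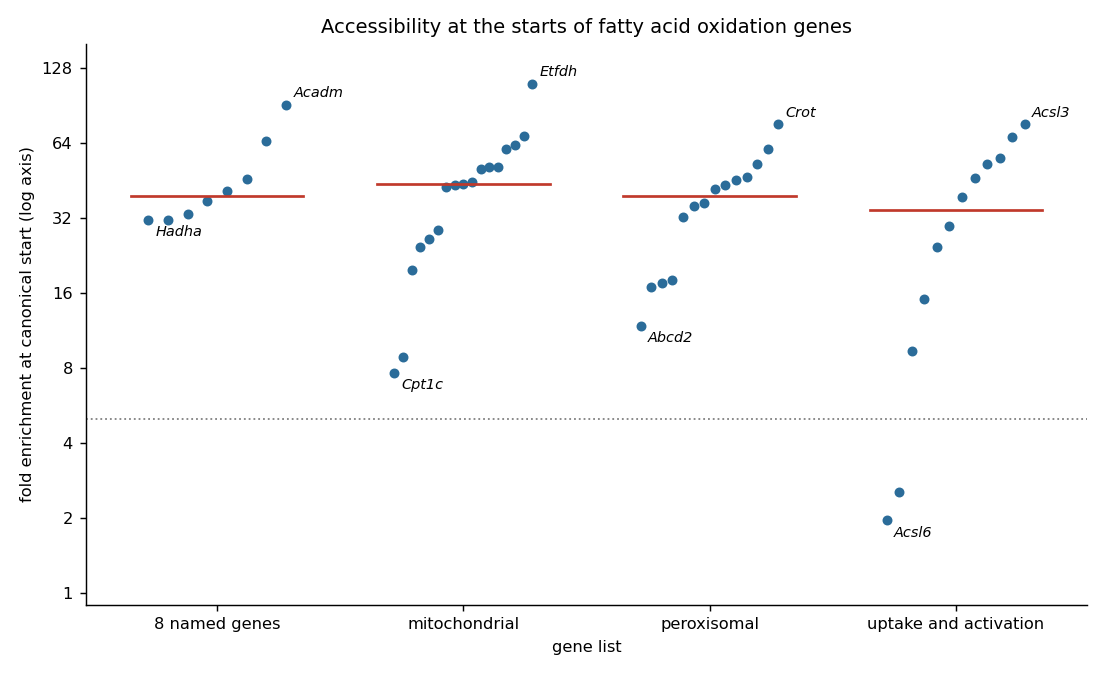
Points give the fold enrichment of the highest summit within 1 kb of the canonical start on a log axis for the 8 genes and for 43 other genes in 3 lists, red lines are medians and the dotted line marks 5-fold. The 8 genes lie between 31.5 and 91.3, within the range of the mitochondrial list (7.66 to 111), and only 2 genes, both of uptake and activation, lie under the dotted line.

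As a check of the tissue, all 6 proximal tubule markers reached 5-fold at the gene start (5.30-fold at Slc22a6 to 33.1-fold at Lrp2), as did 2 of 3 of the thick ascending limb and distal tubule and 2 of 2 of stroma. None of 3 markers of the collecting duct and none of 3 of immune cells did, with Slc4a1 of the former and Cd3e of the latter at 0. For both podocytes and endothelium 1 of 3 did. Of 6 markers of other organs, 2 did at the gene start, Ckm (28.2-fold) and Gfap (8.05-fold), and 0 at the canonical start. At the gene start Ckm was above every proximal tubule marker but Lrp2. The 5-fold level was reached by 61.5% of coding genes at the gene start and 64.3% at the canonical start, so this check is weak. Slc22a6 stood above 39.1% of coding genes and Lrp2 above 69.8%. In stroma, Col1a1 reached 10.9-fold, above Slc34a1 (5.63-fold), Slc5a2 (7.40-fold) and Slc22a6. All 8 oxidation genes lay at or above 31.5-fold at their canonical start, a level that 1 of the 6 proximal tubule markers, Lrp2, also reached.

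The rule has a fixed edge at 3 kb upstream. The nearest upstream intervals outside it stood between 3182 bp (Hadhb, 3.99-fold) and 14078 bp (Cpt1a, 2.10-fold) from the gene start, counted to the near edge of the interval. The furthest intervals inside it began 2639 bp (Hadha, 2.03-fold), 2460 bp (Acadm, 4.19-fold), 2251 bp (Ehhadh, 6.74-fold) and 2144 bp (Acadl, 2.49-fold) from the gene start. Of the 107 intervals, 3 had their highest summit outside the region, and these were the intervals with the summit near Tesmin at Cpt1a, within Dlg4 at Acadvl and upstream of Acadm (position -3768 from its canonical start).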

How the data were processed

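Libraries were made from nuclei of kidney tissue (cortex, per the study's methods) by Tn5 tagmentation, 3 WT and 3 Acly cKO. Per the study's methods and the submitters' processing notes, the authors used fastp for trimming and Bowtie2 2.3.4.3 for alignment to mm39, removed duplicates and called peaks and summits with MACS3 3.0.0, without model building and with a set read extension and shift, then removed blacklisted regions with bedtools 2.29.1. deepTools 3.5.1 is also listed, and the direction of the shift, which bears on summit positions, is not clear from the methods text. The study's WT set also included WT libraries deposited earlier, which are not analysed here as samples, and whether the pooled call holds their reads is not given in the sources used here. The deposited columns are the fold enrichment (a ratio to background), the -log10 p-value and -log10 q-value, a score that is 10 times the -log10 q, and the summit offset. The score was not needed. The unfiltered deposited summit list held 874 more summits, 0 of them in the 8 regions.

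Peak rows with the same start and end were joined, giving 279569 intervals from 749750 summits, each with the values of its summit of highest -log10 q. Genes and transcripts were taken from GENCODE M39 on GRCm39. As a check of the build, 81.5% of 15319 genes had a summit within 1 kb in GRCm39 and 37.2% with GRCm38 positions. All fold values were whole multiples of 0.0655 (largest distance 0.00816 of a step), which gives reads per summit over a constant background of 14.3 reads. The -log10 p recomputed from these reads differed from the deposited one by at most 0.000501 over 726637 summits under 300 reads. Intervals are exact Poisson limits at 95% of those reads and cover counting error only. The reads are pooled and the depth of single libraries is unknown. The lowest summit had 25 reads (1.70-fold, -log10 q 1.37) and the median interval 38.

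The genes, lists and motifs were chosen with earlier results of these data known. Named genes are the 8 members with their strongest interval and their strongest without a start, and the 3 highest and 3 lowest genes of each list, of which 1 is not reported here. No test between genotypes or across replicates was run, since there is a single pooled value per site. The Wilson intervals of the DR1 shares were set beside the shares of all windows, with windows counted as independent. The scripts ran on scipy 1.17.1, numpy 2.4.6, pysam 0.24.0, pandas 2.3.3, matplotlib 3.10.9 and Python 3.11.15 and were tested on simulated data.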

Additional observations from a re-analysis of the deposited data

How the results depend on the processing

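The 107 intervals at the 8 genes became 59 at q under 1e-05 and 27 at 5-fold or more, and 443 when summits were counted. Other limits of the region, q under 0.01, and a highest summit or at least 50% of the interval inside the region gave 90 to 140. The count of 6 genes with their highest summit near the gene start ran from 6 to 8, and the median of 35.4-fold at the gene start from 35.4 to 39.3. Of 32 values at single genes 4 moved, to 45.8 at Cpt1a within 3 kb or at the canonical start and to 3.01 at Hadhb within 500 bp or at the closest summit. The share of windows with DR1 (6.54%) was 0.935% with 1 mismatch (interval 0.165 to 5.10, 0.756% of all windows), 37.4% with 3 (28.8 to 46.8, 25.1%), and 14.8% at 5-fold or more (5.92 to 32.5, 5.13% of all such windows). In narrower windows it was 5.61% (2.60 to 11.7, 2.73% of all) and in wider windows 9.35% (5.16 to 16.4, 8.02% of all). The canonical start for the count of highest summits and for the other oxidation genes, the highest summit inside the region and the DR1 search of whole intervals were added once the data had been seen.

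No paired analysis was possible because no column holds a single library. For the same reason leaving out a replicate or a batch could not be run, and variation between mice could not be given.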
